A study of Mus musculus with 33 samples.

Results

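This account follows 37 immediate early and heat shock genes, of 24054 genes counted, through 9 sorted populations of mouse kidney and spleen. The members were listed by name (Fos, Jun, Egr, Nr4a, Klf and Ier family genes, feedback inhibitors such as Dusp1, Zfp36 and Socs3, and the heat shock genes Hspa1a, Hspa1b, Hsph1, Dnaja1 and Dnajb1), with no measured value in the rule, and all 37 were counted and tested. The list was chosen with earlier results of these data known. Shares of members called below are therefore not those of a list independent of the data. The study sequenced RNA from 33 libraries of macrophages, CD64+ CD11bhi cells and conventional dendritic cells (cDCs). All mice were 10-week-old C57BL/6 animals carrying Clec9a-Cre and the Rosa-YFP reporter on both alleles. YFP therefore marks cells with a history of Clec9a expression, a gene of dendritic cell precursors and cDC1, and all groups, sorted as YFP+ or YFP-, carry the same 2 alleles.

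Kidney cells were CD45+ Ly6C- MHCII+. Within them, the CD11bhi YFP+ (5 libraries) and CD11bhi YFP- (2) groups were CD64+ F4/80low CD11bhi, and the F4/80hi YFP+ (3) and F4/80hi YFP- (3) groups were CD64+ F4/80hi CD11blow. Kidney cDC1 (6) were CD11c+ CD64- CD24+ YFP+, and kidney cDC2 (5) were CD11c+ CD64- CD11b+ YFP+. Spleen gave red pulp macrophages (RPM, 3; autofluorescent, F4/80+, YFP-), cDC1 (3; CD24+ CD205+ YFP+) and cDC2 (3; CD11b+ YFP+). No label names separate animals, so p-values measure the spread between these libraries.

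Immediate early genes are transcribed within minutes of a stimulus without new protein synthesis. Many encode transcription factors (AP-1 dimers of Fos and Jun proteins, Egr zinc finger factors, Nr4a orphan nuclear receptors), and others encode proteins that switch the same signals off again. Heat shock genes are switched on by heat shock factors and encode chaperones that refold proteins. Both kinds of genes are also known to respond while tissues are being dissociated and cells sorted. The labels do not describe how kidney and spleen were dissociated, so the part of cell preparation in any level below was not tested.

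Promoters of the members that carry the tissue and lineage differences are printed here from RefSeq (GRCm38.p6, 250 bases before to 50 after an annotated transcript start), where 32 of the 37 members were found (all but Egr1, Egr3, Ier2, Nfkbiz and Myc). Hspa1a (chr17:34972107-34972406, minus strand) and Hspa1b (chr17:34959189-34959488, minus strand) encode the inducible Hsp70. Their windows are shown because they are identical at 296 of 300 bases. Jun (chr4:95052173-95052472, minus strand) is shown as the AP-1 gene that was higher in kidney with them. Capitals in these 3 mark a heat shock element, searched as GAANNTTC or TTCNNGAA on both strands.
Hspa1a: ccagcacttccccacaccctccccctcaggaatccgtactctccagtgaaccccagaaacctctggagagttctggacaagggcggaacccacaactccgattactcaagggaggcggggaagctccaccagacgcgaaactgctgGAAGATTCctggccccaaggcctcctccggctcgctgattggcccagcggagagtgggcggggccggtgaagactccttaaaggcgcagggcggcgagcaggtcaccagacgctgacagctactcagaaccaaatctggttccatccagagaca
Hspa1b: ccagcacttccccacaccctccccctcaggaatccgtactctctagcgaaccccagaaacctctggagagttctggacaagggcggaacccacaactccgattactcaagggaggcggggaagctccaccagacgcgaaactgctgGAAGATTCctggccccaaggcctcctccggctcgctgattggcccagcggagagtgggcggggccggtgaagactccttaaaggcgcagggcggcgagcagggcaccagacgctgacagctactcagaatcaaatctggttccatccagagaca
Jun: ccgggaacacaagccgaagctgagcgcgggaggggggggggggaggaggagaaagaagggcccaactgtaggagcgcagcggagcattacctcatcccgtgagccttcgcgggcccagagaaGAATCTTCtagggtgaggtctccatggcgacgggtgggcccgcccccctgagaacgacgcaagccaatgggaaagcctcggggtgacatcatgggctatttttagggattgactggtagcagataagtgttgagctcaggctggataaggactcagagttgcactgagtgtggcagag
Fos (chr12:85473640-85473939, plus strand) and Nr4a1 (chr15:101266596-101266895, plus strand) are shown as an AP-1 gene transcribed in every library and as the nuclear receptor gene whose level differed widely between the populations. Capitals mark an NF-kB site in both and, nearest the start of Fos, a TATAAA box.
Fos: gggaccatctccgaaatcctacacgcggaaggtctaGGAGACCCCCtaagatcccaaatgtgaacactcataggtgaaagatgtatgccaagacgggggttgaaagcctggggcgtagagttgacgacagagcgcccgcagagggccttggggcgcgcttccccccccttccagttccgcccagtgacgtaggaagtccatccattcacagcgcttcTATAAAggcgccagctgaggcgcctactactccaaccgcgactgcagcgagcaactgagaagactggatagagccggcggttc
Nr4a1: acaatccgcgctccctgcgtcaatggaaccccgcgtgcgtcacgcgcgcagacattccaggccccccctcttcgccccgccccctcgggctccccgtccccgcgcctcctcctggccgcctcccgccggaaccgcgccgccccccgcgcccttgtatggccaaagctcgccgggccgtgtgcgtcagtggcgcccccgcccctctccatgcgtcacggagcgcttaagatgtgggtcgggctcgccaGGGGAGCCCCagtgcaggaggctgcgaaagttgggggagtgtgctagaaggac
The Nr4a1 window lies within the gene as annotated at chr15:101253902-101274795, at an internal transcript start. The element starts at position -104 from the transcript start in both Hspa1 windows and at -128 in Jun.

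The heat shock element was present in 4 of the 5 heat shock genes (Dnaja1, Hspa1a, Hspa1b and Hsph1) and in 4 other members (Cyr61, Egr2, Fosl2 and Jun), which is 8 of 32 members, against 16.97% of all 27025 genes with a window. A gene counts here if any of its windows matches. The 32 members have 43 windows, and the element is in 1 of 5 windows of Egr2 and 1 of 3 of Dnaja1. An NF-kB site was found in 7 of 32 (Egr2, Fos, Fosb, Fosl2, Nfkbia, Nr4a1 and Tnfaip3), against 6.55%. The cyclic AMP response element TGACGTCA was found in 4 of 32 (Btg2, Dusp1, Maff and Ppp1r15a), against 2.03%. A CArG box occurred in 2 of 32 (Egr2 and Zfp36), against 1.81%, TATAAA in 8 of 32, against 15.7%, the AP-1 motif TGANTCA in 1 of 32 (Tnfaip3), against 8.97%, and the variant TGACGCAA in 1 of 32 (Fosb), against 0.562%. Each motif was searched on its own on both strands, so matches to different motifs may overlap. These counts describe letters in the windows only.

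Each library held 8729224 to 23000575 reads in genes. Reads outside single genes made up 22.6% to 64.0%, the highest share being in CD11bhi YFP+ replicate 4. That library also had the fewest reads in genes and the most genes with reads (16622). Libraries carry a GS or a BS prefix. The 12 BS libraries are all CD11bhi libraries, kidney cDC2 replicates 1 and 2 and kidney cDC1 replicates 1 to 3. The other 21 are GS. The 6 macrophage markers measured summed to 13038 to 13818 CPM (counts-per-million) in F4/80hi YFP+, 16448 to 17969 in RPM, 1778 to 3387 in CD11bhi YFP+ and 261 to 403 in kidney cDC2 libraries. The 8 cDC1 markers reached 7017 to 8321 CPM in kidney cDC1 and 7381 to 7772 in spleen cDC1. The 6 cDC2 markers overlapped between CD11bhi YFP+ cells (6428 to 8155 CPM) and kidney cDC2 (6427 to 7615) and were lower in spleen cDC2 (1539 to 1874). Their sum was 2757 to 3675 in RPM, 1822 to 2333 in F4/80hi YFP+ and 1776 to 2145 in F4/80hi YFP-. It therefore did not set spleen cDC2 apart from macrophages. Haemoglobin genes had 0 reads in every library. Markers of kidney tubule (8 genes) summed to 23.2 to 106 CPM in kidney cDC2, 14.8 to 764 in kidney cDC1 and 249 to 622 in F4/80hi YFP-, against 0.35 to 0.612 in spleen cDC2, 0.921 to 1.45 in spleen cDC1 and 32.8 to 76.2 in RPM. Their part in the differences between kidney and spleen was not tested. In sorted bulk cells, fewer cells with a transcript and less of it per cell cannot be told apart.

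Summed on the per-length scale of TPM (transcripts-per-million), the 37 members took 5.06% of the signal in kidney cDC2, 3.76% in CD11bhi YFP+ cells, 4.62% in CD11bhi YFP-, 1.99% in F4/80hi YFP+ and 1.96% in F4/80hi YFP-. The shares were 3.03% in spleen cDC2, 1.46% in RPM, 1.46% in spleen cDC1 and 1.35% in kidney cDC1. The sum in kidney cDC2 was 50631 ± 10738 TPM (SD, n = 5). Its largest single level was that of Zfp36 (tristetraprolin, which destabilises cytokine mRNAs), at 9282 ± 2424 TPM (SD, n = 5), followed by Junb at 5557 ± 819 TPM. Among the members, the 8 AP-1 genes summed to 13936 ± 2722 TPM and the 7 feedback inhibitors to 16978 ± 3528 TPM in kidney cDC2. The 5 heat shock genes summed to 12524 ± 3591 TPM in CD11bhi YFP+ (SD, n = 5), 10296 ± 3468 in kidney cDC2 (n = 5), 9283 ± 1739.6 in F4/80hi YFP+ (n = 3) and 5370.5 ± 1699 in kidney cDC1 (n = 6), against 2044 ± 429.8 in spleen cDC1, 2034 ± 857 in spleen cDC2 and 549.9 ± 111 in RPM (n = 3 each). The lowest kidney library in this sum, kidney cDC1 replicate 1, had 3282 TPM, and the highest spleen library, spleen cDC2 replicate 1, had 3024 TPM.

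**Figure D1:**
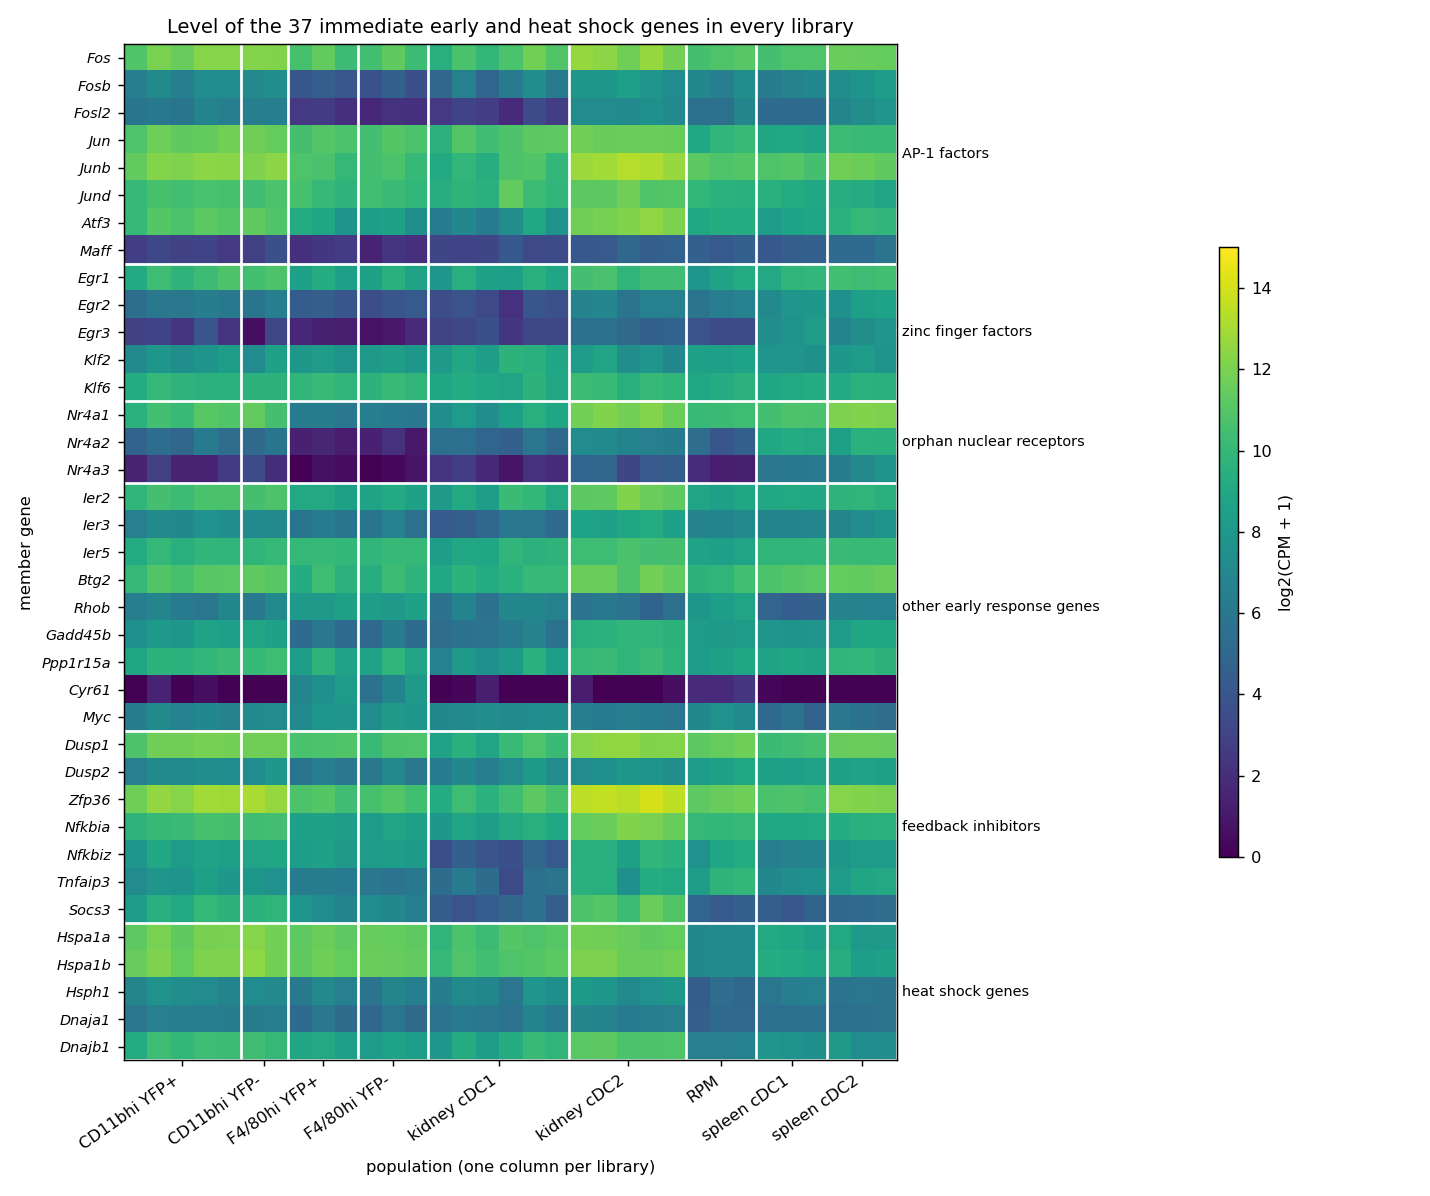
Heat map of log2(CPM + 1) for the 37 members (rows, grouped by role) in the 33 libraries (columns, grouped by population). Zfp36 reaches its highest value, 16588 CPM, in kidney cDC2 replicate 4. Hspa1a and Hspa1b are lower in the 9 spleen libraries than in any kidney library, and Cyr61 is highest in the 6 F4/80hi libraries.

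Inducible heat shock genes were higher in kidney than in spleen in dendritic cells and macrophages alike. A member is called here where edgeR's quasi-likelihood test, fitted across all genes with population and prefix as terms, gave an adjusted p under 0.05 and a log2 fold of at least 1 in size. Folds are those of this fit, so they need not equal the ratio of the means. Hspa1a, an inducible Hsp70 gene, had 3548, 3503, 2913, 2578 and 2757 CPM in kidney cDC2, against 545, 268 and 264 CPM in spleen cDC2 (log2 fold 3.19 ± 0.30 SE, edgeR adjusted p = 2.57e-09). All 5 kidney libraries exceeded all 3 spleen libraries. In cDC1, Hspa1a had 902 to 2243 CPM (median 1819) in the 6 kidney libraries, against 559, 471 and 349 CPM in spleen (log2 fold 1.96 ± 0.27 SE, edgeR adjusted p = 6.65e-06), and the groups did not overlap. F4/80hi YFP- macrophages had 2922, 2808 and 2467 CPM, against 127, 142 and 136 CPM in RPM (log2 fold 4.34 ± 0.32 SE, edgeR adjusted p = 1.23e-11). The lowest kidney library of any population, kidney cDC1 replicate 1, was still above the highest spleen library.

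Hspa1b, its near-identical copy, followed the same order. It had 4146, 4155, 3045, 3077 and 3510.4 CPM in kidney cDC2, against 637, 322 and 378 CPM in spleen cDC2 (log2 fold 3.08 ± 0.27 SE, edgeR adjusted p = 1.02e-09). F4/80hi YFP- cells had 3137, 2909.8 and 2730.1 CPM, against 126, 142 and 146 CPM in RPM (log2 fold 4.41 ± 0.29 SE, edgeR adjusted p = 1.76e-12), and kidney cDC1 had 1022 to 2424 CPM (median 1862), against 632, 569 and 465 CPM in spleen cDC1 (log2 fold 1.74 ± 0.25 SE, edgeR adjusted p = 9.95e-06). The coding sequences of the pair differ at 10 of 1929 aligned positions, with a longest identical stretch of 638 bases. The deposited RSEM table, which shares out ambiguous reads, held 3.10 times as many reads for Hspa1a and 2.91 times as many for Hspa1b as the unique STAR counts, so the split between the copies is uncertain and their CPM understate the level. For Dnaja1 that factor was 4.0007, and for the other 34 members it lay between 0.831 and 1.15.

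Dnajb1, an Hsp40 co-chaperone that loads substrates onto Hsp70, had 2323, 2374, 1705, 1820.2 and 1888 CPM in kidney cDC2, against 267, 157 and 169.7 CPM in spleen cDC2 (log2 fold 3.59 ± 0.37 SE, edgeR adjusted p = 1.69e-08). Hsph1, a nucleotide exchange factor for Hsp70, was called higher in kidney cDC2 (log2 fold 2.05 ± 0.38 SE, edgeR adjusted p = 0.000146) and in F4/80hi YFP- cells (log2 fold 1.44 ± 0.38 SE, edgeR adjusted p = 0.00539) but not in kidney cDC1, and Dnaja1 was called in none of the 3 comparisons. In all, 4 of 5 heat shock genes rose in kidney cDC2, 3 in kidney cDC1 and 4 in F4/80hi YFP- macrophages, and none fell. Of all genes tested, 11.9%, 6.66% and 11.1% were called higher in these 3 comparisons.

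**Figure D2:**
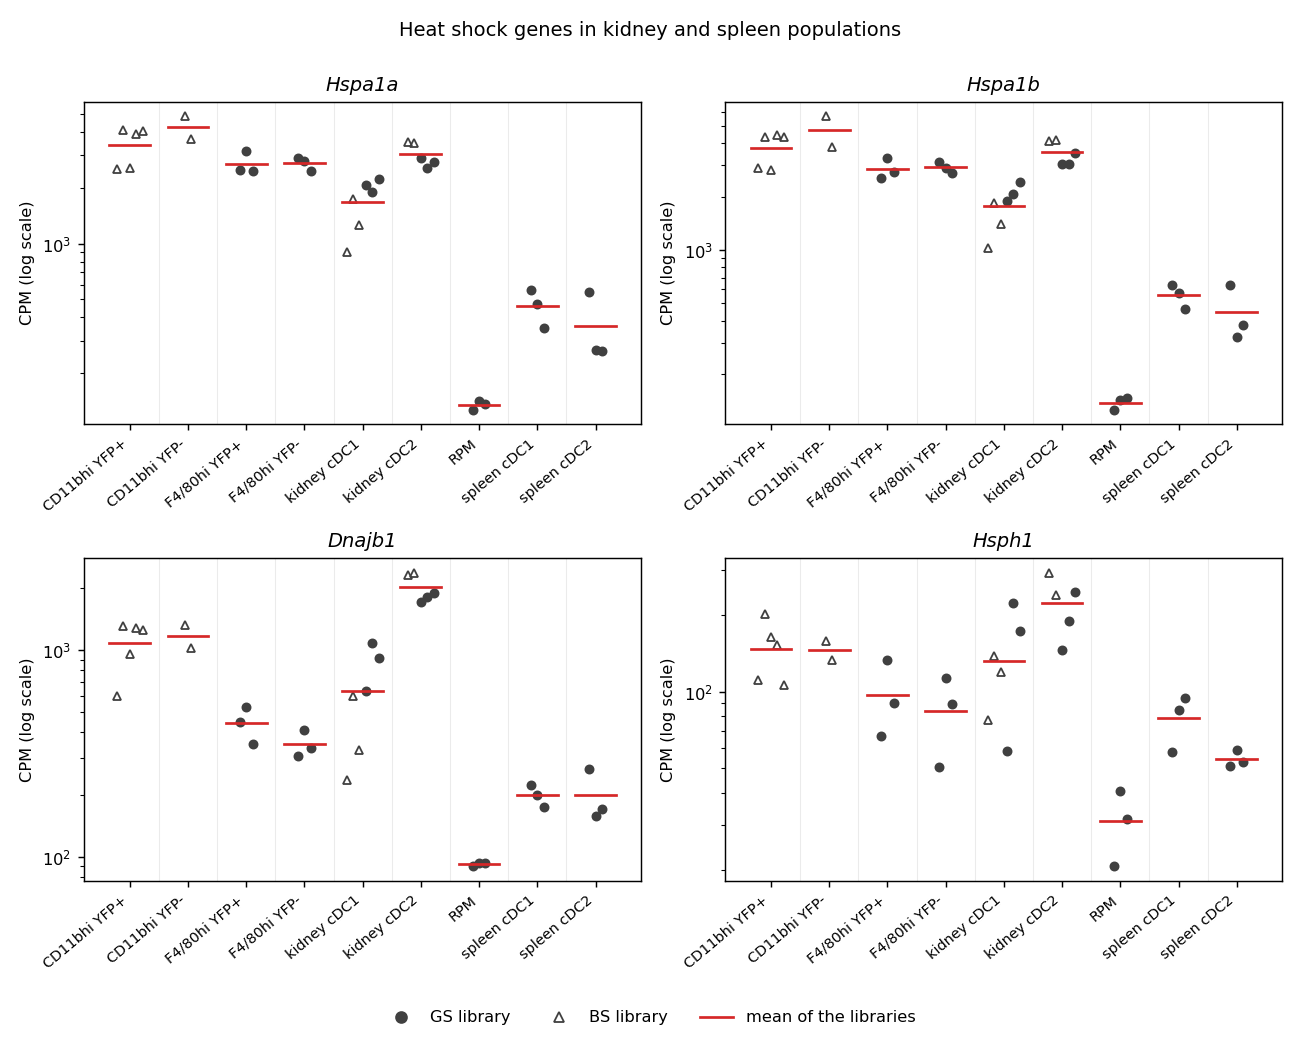
CPM on a log scale for 4 heat shock genes in every library, by population, with filled circles for GS and open triangles for BS libraries and a red line at the mean. For Hspa1a and Hspa1b every kidney library lies above every spleen library. For Hsph1 the kidney cDC1 libraries overlap the spleen cDC1 libraries.

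In cDC2, the kidney cells carried a broad set of higher early genes beside the heat shock genes. In kidney cDC2 relative to spleen cDC2, 20 of the 37 members were called, against 18.8% of all 14258 genes tested, with 16 higher (background 11.9%) and 4 lower (6.90%). The median log2 fold of the members was 0.97, against 0.13 for all genes. Within the GS libraries alone, 15 were higher and 5 lower, and the members' median was 0.59, against 0.07 for all genes. By role, the higher members were 4 of 8 AP-1 genes (Jun, Junb, Jund and Atf3), 5 of 7 feedback inhibitors, 4 of 5 heat shock genes and 3 of 9 other early genes.

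Socs3, which blocks JAK-STAT signalling by interleukin-6 family cytokines, differed most. It had 1768, 2119.9, 1236, 3004 and 1976 CPM in kidney cDC2, against 32.6, 33.5 and 39.5 CPM in spleen cDC2 (log2 fold 6.06 ± 0.44 SE, edgeR adjusted p = 2.49e-11). No kidney cDC2 library came near the spleen range. The members that fell were 2 nuclear receptors and 2 Egr factors. Nr4a3 had 28.8, 30.2, 7.64, 17.2 and 20.6 CPM in kidney cDC2, against 78.4, 133 and 195 CPM in spleen cDC2 (log2 fold -3.11 ± 0.55 SE, edgeR adjusted p = 7.03e-05). Nr4a2 had 148, 141, 106, 90.5 and 80.8 CPM, against 362, 778 and 731 CPM (log2 fold -2.60 ± 0.36 SE, edgeR adjusted p = 1.98e-06).

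Egr3 had 43, 43.1, 35.2, 24.5 and 25.9 CPM in kidney cDC2, against 109, 168 and 227 CPM in spleen cDC2 (log2 fold -2.50 ± 0.47 SE, edgeR adjusted p = 0.000166), and Egr2 had 103, 122, 54.2, 95.9 and 92.7 CPM, against 181, 359 and 420.3 CPM (log2 fold -1.89 ± 0.34 SE, edgeR adjusted p = 9.19e-05). None of these 4 overlapped between the groups. Nr4a1 did not pass, with 3638, 4569, 3746, 4845 and 3114 CPM in kidney cDC2, against 4276, 4634 and 4283 CPM in spleen cDC2. Fos, with 6242, 5434, 3433, 6284 and 3795 CPM in kidney cDC2, against 3042, 2931 and 2755 CPM in spleen cDC2, narrowly missed the threshold without overlap (edgeR adjusted p = 0.0508). Egr1, with 1451, 1671, 913, 1362 and 1376 CPM against 1421, 1294 and 1401 CPM, and Cyr61, at most 1.19 CPM against 0, did not pass either.

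The size of this set depended on the scale. On log2(TPM + 1) the median fold of all genes shifted by -0.62 relative to the count scale, and limma called 9 members higher and 7 lower. The members' median was then -0.17, which is 0.33 above that of all genes. Jun, Junb, Ier3, Zfp36, Nfkbiz, Gadd45b and Dusp1 were no longer called higher there. Jun, for example, had a log2 fold of 0.79 on that scale, and 1.28 relative to the median of all genes. With the shared code as a replicate block, the log2 fold of Dusp1 was 0.97 and it was not called.

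In cDC1, the same organs gave a more even split. In kidney cDC1 relative to spleen cDC1, 20 of the 37 members were called, against 11.1% of all 14258 genes tested, with 8 higher (background 6.66%) and 12 lower (4.45%). Over the members the median log2 fold was -0.25, against 0.12 for all genes. The GS libraries alone gave 8 higher and 11 lower, with a members' median of -0.08, against 0.04 for all genes. On log2(TPM + 1), where the median of all genes shifted by -0.32, 6 were higher and 15 lower.

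Egr3 and Egr2, zinc finger factors induced by receptor signalling, fell furthest with Nr4a3 and Nr4a2. Egr3 had 4.24 to 11.5 CPM (median 8.48) in kidney cDC1, against 169.8, 205 and 297 CPM in spleen cDC1 (log2 fold -5.01 ± 0.49 SE, edgeR adjusted p = 1.48e-08). Egr2 had 3.47 to 15.1 CPM (median 11.4) in kidney cDC1, against 136, 223 and 259 CPM in spleen cDC1 (log2 fold -4.39 ± 0.35 SE, edgeR adjusted p = 3.33e-10). Nr4a3 had 0.771 to 5.87 CPM (median 3.02), against 59.7, 66.9 and 73.7 CPM (log2 fold -4.86 ± 0.56 SE, edgeR adjusted p = 3.35e-07). In each of the 3 genes the kidney and spleen libraries lay far apart.

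Nr4a2 had 23.1 to 58.8 CPM (median 38.8) in kidney cDC1, against 488, 589.9 and 533 CPM in spleen cDC1 (log2 fold -3.93 ± 0.35 SE, edgeR adjusted p = 3.18e-09), and Nr4a1 had 168 to 687 CPM (median 330.3), against 1485, 1798 and 1684 CPM (log2 fold -1.99 ± 0.30 SE, edgeR adjusted p = 1.86e-05). All 3 Nr4a genes thus fell in kidney cDC1. Among the higher members, Jun had 806 to 2458 CPM (median 1916), against 472, 502 and 392 CPM (log2 fold 2.11 ± 0.28 SE, edgeR adjusted p = 2.66e-06). Myc, a growth-promoting transcription factor, had 120.5 to 172 CPM (median 150.2), against 34, 52.1 and 26.3 CPM (log2 fold 2.02 ± 0.25 SE, edgeR adjusted p = 9.91e-07).

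Rhob, a small GTPase of endosomes and the cell cortex, had 48.7 to 120.4 CPM (median 102) in kidney cDC1, against 28.3, 21.2 and 22.8 CPM in spleen cDC1 (log2 fold 1.96 ± 0.34 SE, edgeR adjusted p = 0.000121). These 3 genes did not overlap between the organs. Fos did not pass and overlapped, with 666 to 3548 CPM (median 1696) in kidney cDC1, against 1502, 1879 and 1887 CPM in spleen cDC1. Egr1 did not pass either, with 235 to 735 CPM (median 428), against 539, 915 and 968 CPM. Cyr61 was at most 1.38 CPM in kidney cDC1 and at most 0.206 CPM in spleen cDC1.

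Between the macrophages of the organs, Hsp70 rose while the nuclear receptors and Fosl2 fell. In F4/80hi YFP- cells relative to RPM, both YFP- and both GS only, 20 of the 37 members were called, against 20.1% of all 14258 genes tested, with 8 higher (background 11.1%) and 12 lower (9.02%). The median fold of the members (log2) was -0.42, against 0.03 for all genes. Fosl2, a Fos-related AP-1 factor, had 2.23, 3.52 and 3.1 CPM in F4/80hi YFP- cells, against 45.9, 45.5 and 114 CPM in RPM (log2 fold -4.52 ± 0.41 SE, edgeR adjusted p = 8.16e-10). Nr4a1 had 82.9, 70.1 and 62.7 CPM, against 1099, 1195 and 1319.8 CPM (log2 fold -4.07 ± 0.38 SE, edgeR adjusted p = 1.39e-09). In both genes the ranges were widely separated.

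Nr4a2 had 1.55, 3.32 and 1.03 CPM in F4/80hi YFP- cells, against 39.4, 15.3 and 23.2 CPM in RPM (log2 fold -3.70 ± 0.45 SE, edgeR adjusted p = 2.18e-07). Tnfaip3 (A20, a ubiquitin-editing brake on NF-kB) had 59.6, 50.9 and 65.8 CPM, against 319.7, 862 and 984 CPM (log2 fold -3.62 ± 0.49 SE, edgeR adjusted p = 1.16e-06). Socs3 was higher, with 157, 119.8 and 88.4 CPM in F4/80hi YFP- cells, against 28.8, 18 and 23.5 CPM in RPM (log2 fold 2.38 ± 0.38 SE, edgeR adjusted p = 1.65e-05). Fos overlapped and did not pass, with 1493, 2637 and 1261 CPM, against 1508, 1857 and 2244 CPM, and neither did Egr1, with 379, 748 and 403 CPM, against 231, 406 and 594 CPM.

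Cyr61 (Ccn1), a secreted matrix-associated protein, separated the F4/80hi cells from every other population. It had 47.9, 107 and 261 CPM in F4/80hi YFP- and 112, 188 and 307 CPM in F4/80hi YFP+ cells, against 2.46, 2.53 and 4.22 CPM in RPM (YFP- against RPM: log2 fold 5.51 ± 0.97 SE, edgeR adjusted p = 8.22e-05). In the CD11bhi, kidney cDC1 and kidney cDC2 libraries 0 to 27 reads were counted per library, and in spleen cDC1 1 to 3. All 3 spleen cDC2 libraries had 0 reads, which allows at most 0.264 CPM. Summed over the 7 endothelial markers, F4/80hi YFP+ libraries had 10.9 to 77.6 CPM, against 23.8 to 38.6 in kidney cDC2. The 5 fibroblast markers summed to 2.8 to 9.36 CPM in F4/80hi YFP+, against 0.622 to 2.16 in kidney cDC2, the 3 platelet markers to 25.5 to 210.2, against 0 to 0.812, and the tubule markers to 84.5 to 341, against 23.2 to 106. The part of such cells in the Cyr61 level was not tested.

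The 3 organ comparisons share no library, but they come from the same fit and all hold libraries of the same 3 GS codes. Calls that they share are therefore not independent. Members called higher in kidney in all 3 were Jun, Hspa1a, Hspa1b and Dnajb1, 10.8% of the members against 1.49% of all genes tested. Members called lower in all 3 were Egr2, Egr3, Nr4a2 and Nr4a3, again 10.8%, against 0.814% of all genes. Ier3, Nfkbia, Nfkbiz and Gadd45b were called in opposite directions in different lineages, 10.8% against 2.29%. Fos, Egr1, Klf6, Ppp1r15a and Dnaja1 were called in none. These names were read off after the values were seen. Counting did not use strand. Exons of Jun overlap those of Junos, and exons of Hspa1a those of Gm20481, on the opposite strand. The same holds for Junb (Prdx2), Jund (Gm11175), Dusp1 (Ergic1), Zfp36 (Gm44710), Ppp1r15a (Tulp2) and Dnaja1 (Gm6297 and Smu1). Reads where such exons overlap cannot be told apart. The call of Jun in macrophages was lost without RPM replicate 1 (0.79) and F4/80hi YFP- replicate 2 (0.90), and that of Nr4a3 without RPM replicate 1 (-1.83), F4/80hi YFP- replicate 1 (-1.76) and F4/80hi YFP- replicate 2 (-2.004), log2 folds in brackets. Nr4a3 rested there on 0, 4 and 12 reads in F4/80hi YFP-, against 46, 21 and 17 reads in RPM.

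**Figure D3:**
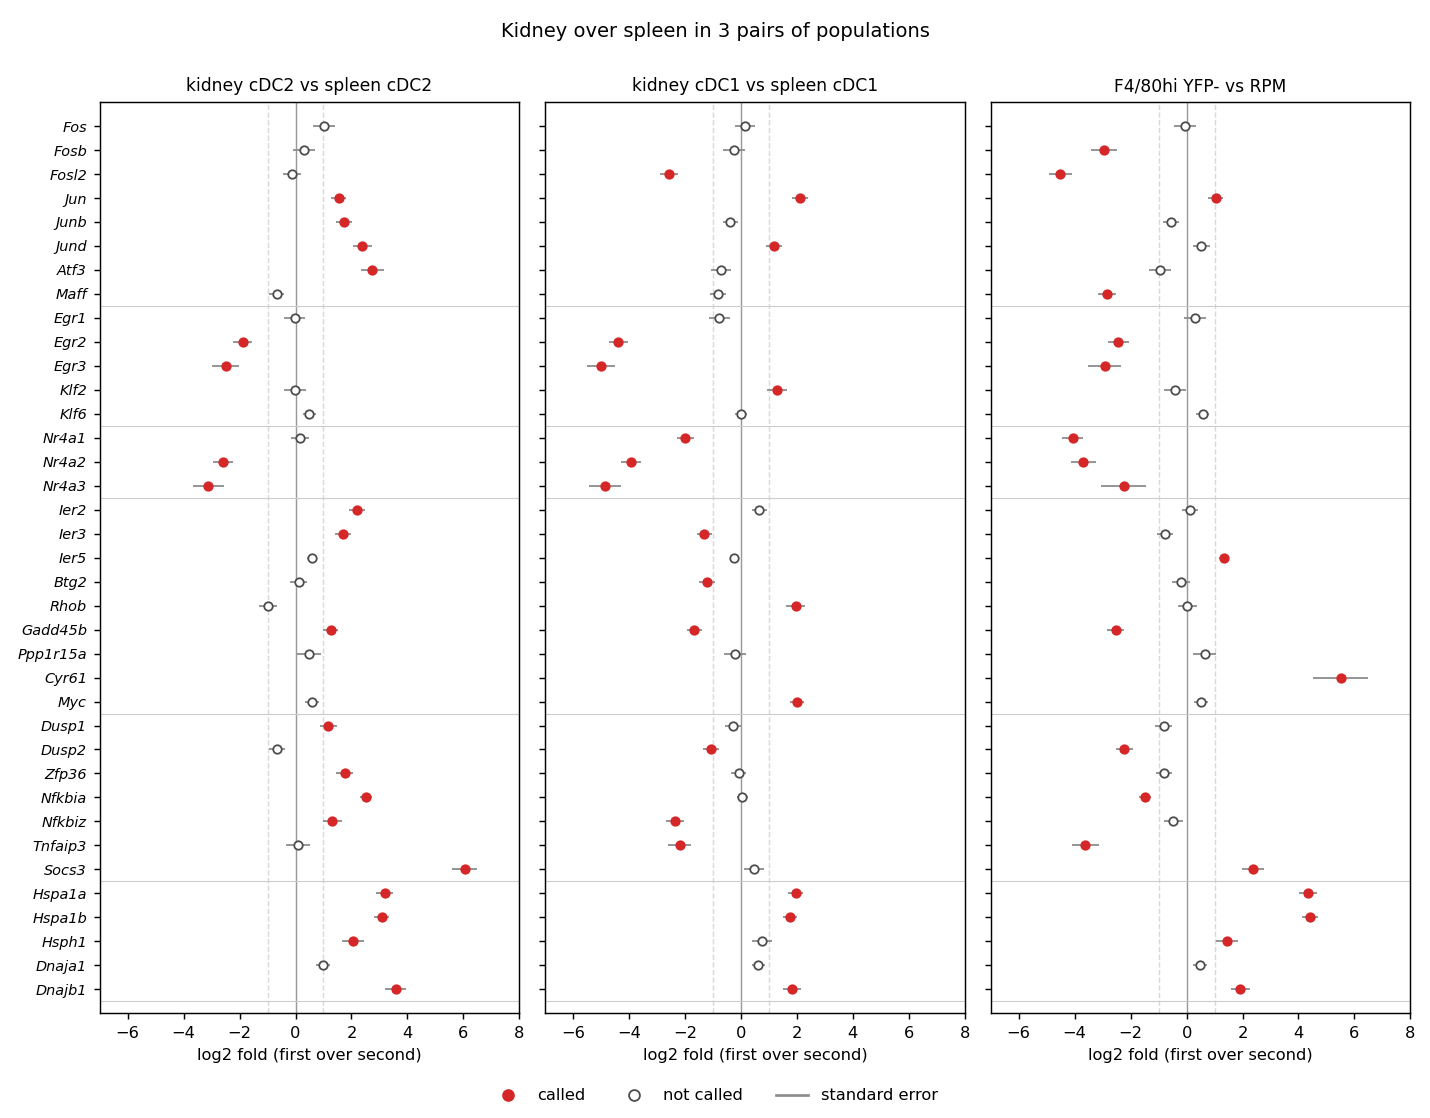
Log2 fold of kidney over spleen with its standard error for each member, in cDC2, cDC1 and macrophages, with filled red points for called members. Points are left out where both group means are under 1 CPM (Cyr61 in the cDC panels). Hspa1a, Hspa1b and Dnajb1 lie right of the line in all 3 panels and Egr2, Egr3, Nr4a2 and Nr4a3 left of it, while Socs3 reaches 6.06 in cDC2.

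A direct test asked whether the difference between the organs itself differed between macrophages and cDC2. For this interaction, 20 of the 37 members were called, against 24.2% of all 14258 genes tested, 18 of them with a lower kidney-to-spleen ratio in macrophages (background 14.0%) and 2 with a higher one (10.2%). The most negative values were those of Fosl2 (log2 fold -4.39 ± 0.51 SE, edgeR adjusted p = 1.55e-07), Nr4a1 (log2 fold -4.21 ± 0.49 SE, edgeR adjusted p = 1.48e-07), Nfkbia (log2 fold -4.02 ± 0.30 SE, edgeR adjusted p = 4.06e-11) and Gadd45b (log2 fold -3.79 ± 0.41 SE, edgeR adjusted p = 3.92e-08). Nfkbia encodes the NF-kB inhibitor IkB-alpha and Gadd45b a stress-induced signalling protein, and both were higher in kidney cDC2 than in spleen cDC2 and lower in F4/80hi YFP- cells than in RPM. The 2 positive values were Hspa1b (log2 fold 1.33 ± 0.35 SE, edgeR adjusted p = 0.00559) and Hspa1a (log2 fold 1.15 ± 0.39 SE, edgeR adjusted p = 0.0249). The Hspa1a call was lost without spleen cDC2 replicate 1 (0.77) and kidney cDC2 replicate 4 (1.03). Without the 7 GS libraries of the first code the values were 0.67 for Hspa1a and 0.83 for Hspa1b, and neither was called. On log2(TPM + 1), where the median of all genes shifted by 0.62, 7 were positive and 14 negative.

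Within the kidney, cDC1 were below cDC2 in members of every role. In kidney cDC1 relative to kidney cDC2, 29 of the 37 members were called, against 15.7% of all 14258 genes tested, with 27 lower (background 10.2%) and 2 higher (5.48%). The members' median log2 fold was -1.75, against -0.02 for all genes. Both prefixes hold both groups: the GS libraries gave 23 lower and 3 higher, and the BS libraries 29 lower and 0 higher. The GS libraries of both groups carry the same codes in their names. In the BS libraries the groups share no code, so population and code cannot be told apart there. The members' median was -1.28 in GS libraries, against -0.03 for all genes, and -2.27 in BS libraries, against 0.01. The lower members were 7 of 8 AP-1 genes, all 3 Nr4a genes, 3 of 5 zinc finger genes, 6 of 7 feedback inhibitors, 6 of 9 other early genes and 2 of 5 heat shock genes.

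Socs3 was again the extreme, with 13.6 to 48.3 CPM (median 21.7) in kidney cDC1, against 1768, 2119.9, 1236, 3004 and 1976 CPM in kidney cDC2 (log2 fold -6.29 ± 0.32 SE, edgeR adjusted p = 2.79e-15). Nfkbiz (IkB-zeta, a nuclear co-regulator of NF-kB targets) had 11 to 29.7 CPM (median 16.5), against 698, 711, 371, 929 and 764 CPM (log2 fold -5.25 ± 0.30 SE, edgeR adjusted p = 2.47e-14). Atf3, a stress-induced ATF family repressor, had 69.2 to 498 CPM (median 147), against 3459, 3909.8, 4494, 5816 and 4266 CPM (log2 fold -4.67 ± 0.33 SE, edgeR adjusted p = 3.26e-12). The highest kidney cDC1 library was below the lowest kidney cDC2 library in each of these 3 genes.

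Fosl2 had 2.57 to 9.93 CPM (median 5.74) in kidney cDC1, against 153, 148, 138, 181 and 144 CPM in kidney cDC2 (log2 fold -4.64 ± 0.29 SE, edgeR adjusted p = 1.64e-13), and Nr4a1 had 168 to 687 CPM (median 330.3), against 3638, 4569, 3746, 4845 and 3114 CPM (log2 fold -3.55 ± 0.27 SE, edgeR adjusted p = 9.59e-12). Fos had 666 to 3548 CPM (median 1696), against 6242, 5434, 3433, 6284 and 3795 CPM (log2 fold -1.59 ± 0.30 SE, edgeR adjusted p = 0.000125), and these ranges overlapped. Within the GS libraries the Fos log2 fold was -0.90 and it was not called. Egr1 had 235 to 735 CPM (median 428), against 1451, 1671, 913, 1362 and 1376 CPM (log2 fold -1.51 ± 0.29 SE, edgeR adjusted p = 0.0002), without overlap.

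Hspa1b had 1022 to 2424 CPM (median 1862) in kidney cDC1, against 4146, 4155, 3045, 3077 and 3510.4 CPM in kidney cDC2 (log2 fold -1.02 ± 0.19 SE, edgeR adjusted p = 0.000102), near the fold threshold. It was not called without kidney cDC2 replicate 1 (-0.93), kidney cDC2 replicate 2 (-0.93), kidney cDC1 replicate 1 (-0.91) and kidney cDC1 replicate 3 (-0.98), in the GS libraries alone (-0.60) or with the replicate block (-0.76). The block also ended the calls of Jund (-0.88) and Ier5 (-0.96). Hspa1a, with 902 to 2243 CPM (median 1819) against 3548, 3503, 2913, 2578 and 2757 CPM, did not pass. The 2 higher members were Klf2 (log2 fold 1.04 ± 0.30 SE, edgeR adjusted p = 0.00936) and Myc (log2 fold 1.03 ± 0.19 SE, edgeR adjusted p = 8.05e-05), with 269 to 837 CPM (median 468) and 120.5 to 172 CPM (median 150.2) in kidney cDC1, against 295, 435, 171, 221 and 127 CPM and 87.8, 67.6, 85.1, 71.2 and 57.4 CPM in kidney cDC2.

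Klf2, a quiescence-associated zinc finger factor, overlapped between the groups, and Myc did not. Klf2 was not called without kidney cDC2 replicate 3 (0.87), kidney cDC2 replicate 4 (0.98), kidney cDC2 replicate 5 (0.81), kidney cDC1 replicate 4 (0.86) and kidney cDC1 replicate 5 (0.93), and in the BS libraries alone its log2 fold was -0.03. Myc was not called without kidney cDC2 replicate 2 (0.9975), kidney cDC2 replicate 5 (0.95), kidney cDC1 replicate 3 (0.99) and kidney cDC1 replicate 6 (0.98), nor in the BS libraries alone (0.89). Cyr61 did not exceed 1.38 CPM in either group.

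F4/80hi YFP+ cells had lower levels of most early genes than kidney cDC2. In F4/80hi YFP+ cells relative to kidney cDC2, 31 of the 37 members were called, against 19.4% of all 14258 genes tested, with 28 lower (background 10.5%) and 3 higher (8.87%). Over the members the median log2 fold was -1.91, against 0.02 for all genes. The GS libraries alone gave 24 lower and 3 higher, with a members' median of -1.59, against 0.07 for all genes. All 3 Nr4a genes, 7 of 8 AP-1 genes and all 7 feedback inhibitors were among the lower members.

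Nr4a1, a nuclear receptor whose level is known to follow antigen-receptor signalling in lymphocytes, had 81.6, 77.2 and 62.3 CPM in F4/80hi YFP+ cells, against 3638, 4569, 3746, 4845 and 3114 CPM in kidney cDC2 (log2 fold -6.05 ± 0.41 SE, edgeR adjusted p = 3.89e-12). Nr4a2 had 1.55, 2 and 1.19 CPM, against 148, 141, 106, 90.5 and 80.8 CPM (log2 fold -6.01 ± 0.48 SE, edgeR adjusted p = 8.59e-11). Nr4a3 had 0, 0.6 and 0.419 CPM, against 28.8, 30.2, 7.64, 17.2 and 20.6 CPM (log2 fold -5.47 ± 0.77 SE, edgeR adjusted p = 2.03e-06). All 3 F4/80hi YFP+ libraries were far below the kidney cDC2 range for each of these genes.

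Fosl2 had 4.66, 5.27 and 3.21 CPM in F4/80hi YFP+ cells, against 153, 148, 138, 181 and 144 CPM in kidney cDC2 (log2 fold -5.15 ± 0.41 SE, edgeR adjusted p = 5.75e-11). Fos had 1603, 2696 and 1242 CPM, against 6242, 5434, 3433, 6284 and 3795 CPM (log2 fold -1.67 ± 0.40 SE, edgeR adjusted p = 0.002), and Egr1 had 379.5, 634 and 358 CPM, against 1451, 1671, 913, 1362 and 1376 CPM (log2 fold -1.56 ± 0.39 SE, edgeR adjusted p = 0.003). None of the 3 overlapped. Higher members were Cyr61 (edgeR adjusted p = 3.21e-08), Rhob, with 264, 269 and 383 CPM, against 51.2, 64.8, 51.3, 27.5 and 45.4 CPM (log2 fold 2.59 ± 0.33 SE, edgeR adjusted p = 5.21e-07), and Myc, with 144, 238 and 223 CPM, against 87.8, 67.6, 85.1, 71.2 and 57.4 CPM (log2 fold 1.45 ± 0.23 SE, edgeR adjusted p = 1.59e-05).

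Hspa1a and Hspa1b did not pass in this comparison. Hspa1a had 2505, 3154 and 2481 CPM in F4/80hi YFP+ cells, against 3548, 3503, 2913, 2578 and 2757 CPM in kidney cDC2, and Hspa1b had 2557, 3325 and 2755 CPM, against 4146, 4155, 3045, 3077 and 3510.4 CPM. Their ranges overlapped, unlike those of Nr4a1.

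CD11bhi YFP+ cells had higher levels of nuclear receptor, AP-1 and feedback genes than F4/80hi YFP+ cells and lower levels of Cyr61 and Rhob. In CD11bhi YFP+ cells relative to F4/80hi YFP+ cells, 22 of the 37 members were called, against 12.1% of all 14258 genes tested, with 20 higher (background 7.71%) and 2 lower (4.36%). The median fold of the members (log2) was 1.47, against 0.06 for all genes. All CD11bhi libraries are BS and all F4/80hi libraries GS, so no value within a prefix exists. The prefix term of the fit comes from the kidney cDC libraries. Without the prefix term the members' median log2 fold was 1.07, against -0.01 for all genes, and 21 members were called. The calls of Fos (1.03, edgeR adjusted p = 0.0531), Dusp1 (0.87), Btg2 (0.9955) and Maff (0.64) were then lost, and Egr3, Nr4a3 and Tnfaip3 were called higher.

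Nr4a1 had 761, 1474, 1159, 2156 and 1982 CPM in CD11bhi YFP+ cells, against 81.6, 77.2 and 62.3 CPM in F4/80hi YFP+ cells (log2 fold 4.98 ± 0.43 SE, edgeR adjusted p = 3.42e-09; 4.35 without the prefix term). Nr4a2 had 26.1, 40.3, 29.6, 67.9 and 40.6 CPM, against 1.55, 2 and 1.19 CPM (log2 fold 4.38 ± 0.52 SE, edgeR adjusted p = 5.21e-07). Fosl2 had 56.1, 65.7, 55.8, 106 and 87.8 CPM, against 4.66, 5.27 and 3.21 CPM (log2 fold 4.15 ± 0.45 SE, edgeR adjusted p = 1.3e-07). Fosb, a Fos family gene, had 83.7, 136, 88.3, 149.6 and 159 CPM, against 15.3, 22 and 15.5 CPM (log2 fold 3.32 ± 0.52 SE, edgeR adjusted p = 4.03e-05). In all 4 genes the lowest CD11bhi YFP+ library exceeded the highest F4/80hi YFP+ library.

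Fos had 1972, 4028, 2978, 4857 and 5024 CPM in CD11bhi YFP+ cells, against 1603, 2696 and 1242 CPM in F4/80hi YFP+ cells, and passed (log2 fold 1.47 ± 0.47 SE, edgeR adjusted p = 0.0304) although the ranges overlapped. That call was lost without F4/80hi YFP+ replicate 1 (1.33), F4/80hi YFP+ replicate 3 (1.25), CD11bhi YFP+ replicate 4 (1.36) and CD11bhi YFP+ replicate 5 (1.35). Egr1 had 578, 1320.4, 847, 1256 and 1829.6 CPM, against 379.5, 634 and 358 CPM (log2 fold 1.33 ± 0.47 SE, edgeR adjusted p = 0.0491), also with overlap, and its call was lost without F4/80hi YFP+ replicate 1 (1.17), F4/80hi YFP+ replicate 3 (1.19), CD11bhi YFP+ replicate 2 (1.28), CD11bhi YFP+ replicate 4 (1.30) and CD11bhi YFP+ replicate 5 (1.11). Rhob was lower, with 83.3, 114, 75.7, 58.4 and 118 CPM, against 264, 269 and 383 CPM (log2 fold -1.61 ± 0.39 SE, edgeR adjusted p = 0.00463). Cyr61, with 0, 1.79, 0.0631, 0.445 and 0 CPM, against 112, 188 and 307 CPM, was lower as well (edgeR adjusted p = 2.55e-06).

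Of the heat shock genes, Dnajb1 alone was called between these groups (log2 fold 1.75 ± 0.40 SE, edgeR adjusted p = 0.00298). Hspa1a had 2534, 4098, 2553, 3922 and 4068 CPM in CD11bhi YFP+ cells, against 2505, 3154 and 2481 CPM in F4/80hi YFP+ cells, and Hspa1b had 2895, 4325, 2837, 4431 and 4321 CPM, against 2557, 3325 and 2755 CPM. Neither passed, and both overlapped.

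**Figure D4:**
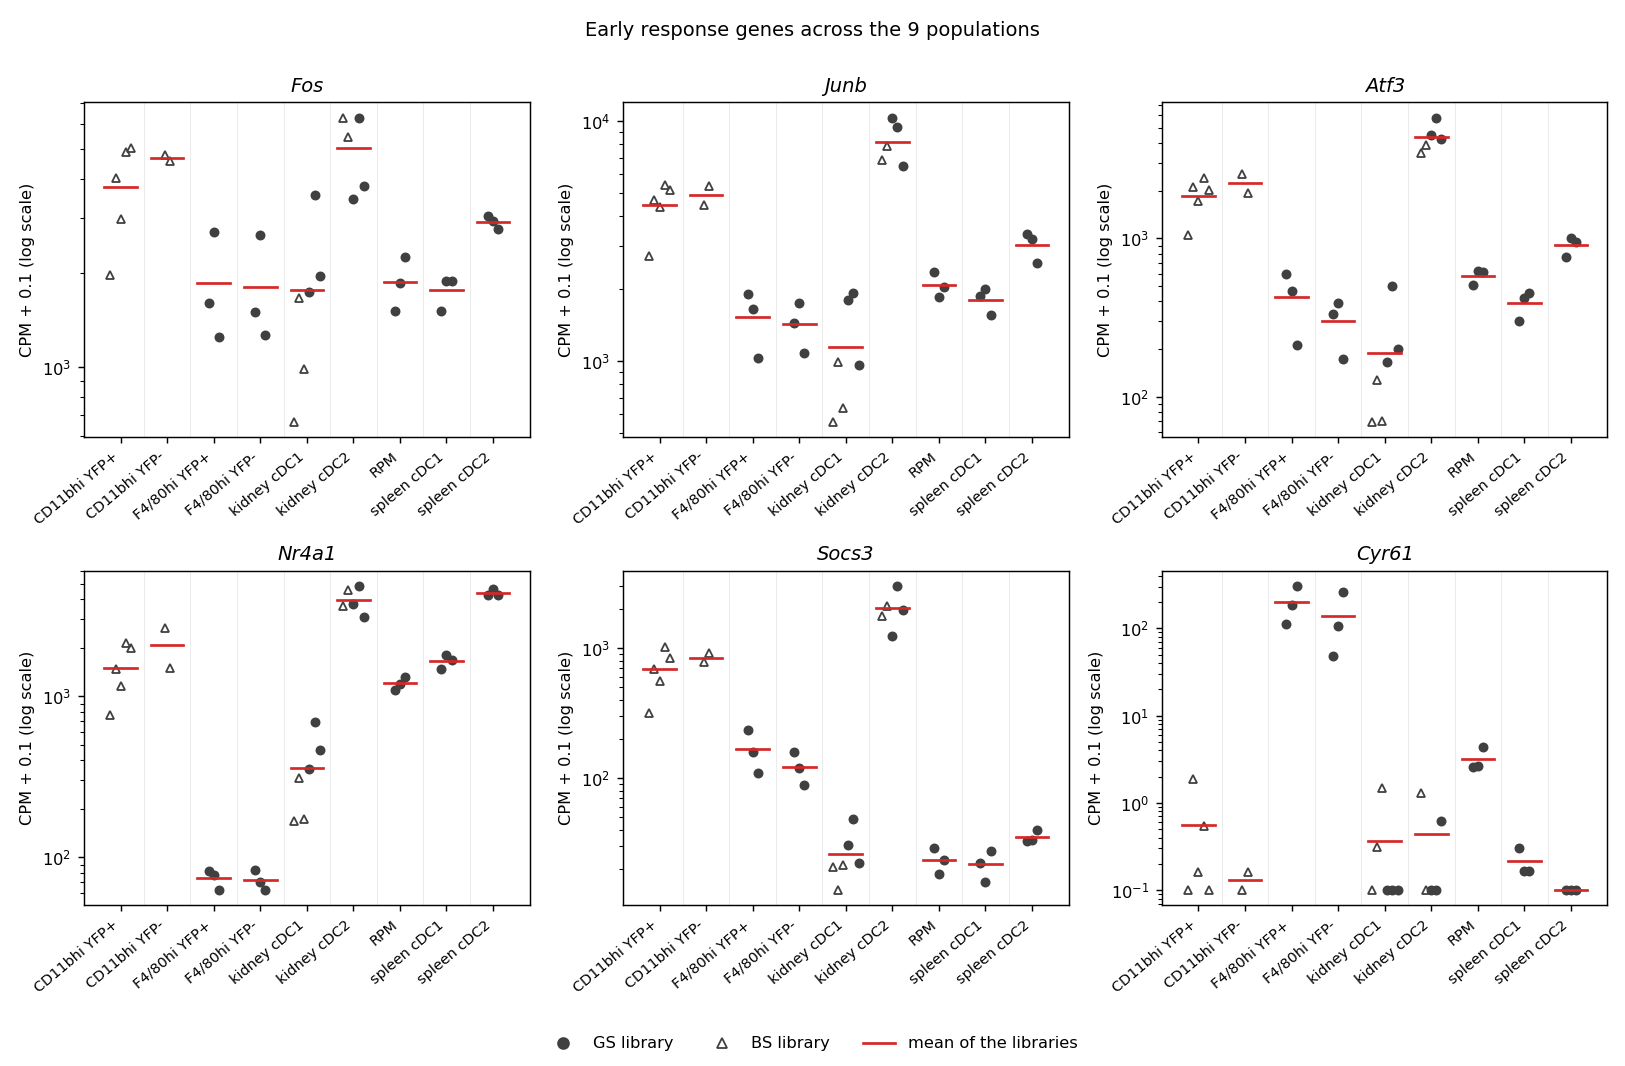
CPM plus 0.1 on a log scale for Fos, Junb, Atf3, Nr4a1, Socs3 and Cyr61 in every library, by population, with filled circles for GS and open triangles for BS libraries and a red line at the mean. Kidney cDC2 have the highest means of Fos, Junb, Atf3 and Socs3, F4/80hi cells have 62.3 to 82.9 CPM of Nr4a1, and Cyr61 is between 47.9 and 307 CPM in the 6 F4/80hi libraries.

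Against kidney cDC2, CD11bhi YFP+ cells had lower Nr4a and Egr3 levels. In this comparison 10 of the 37 members were called, against 2.51% of all 14258 genes tested, all 10 of them lower in CD11bhi YFP+ cells (background 1.05%, and 1.47% for higher calls). The members' median log2 fold was -0.58, against 0.04 for all genes. Within the BS libraries alone 9 were called (members' median -0.82, against 0.03 for all genes), and without the prefix term 14 (-0.79, against -0.03). Rhob was called higher without CD11bhi YFP+ replicate 4 (1.10) and without kidney cDC2 replicate 2 (1.26).

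Nr4a3 had 1.7, 6.11, 1.77, 1.78 and 5.07 CPM in CD11bhi YFP+ cells, against 28.8, 30.2, 7.64, 17.2 and 20.6 CPM in kidney cDC2 (log2 fold -3.08 ± 0.52 SE, edgeR adjusted p = 0.000338). Egr3 had 6.67, 6.97, 3.97, 15.4 and 4.02 CPM, against 43, 43.1, 35.2, 24.5 and 25.9 CPM (log2 fold -2.49 ± 0.45 SE, edgeR adjusted p = 0.000686), and in the BS libraries alone its adjusted p was 0.0866, again with edgeR. Nr4a2 had 26.1, 40.3, 29.6, 67.9 and 40.6 CPM, against 148, 141, 106, 90.5 and 80.8 CPM (log2 fold -1.63 ± 0.32 SE, edgeR adjusted p = 0.00203). None of these overlapped. Tnfaip3 had 149, 225, 213, 364 and 259 CPM, against 740.2, 699, 186, 619 and 552 CPM (log2 fold -1.50 ± 0.39 SE, edgeR adjusted p = 0.0222), with overlap through kidney cDC2 replicate 3, and its call was lost without CD11bhi YFP+ replicate 1 (-1.37), CD11bhi YFP+ replicate 3 (-1.46), kidney cDC2 replicate 1 (-1.45) and kidney cDC2 replicate 2 (-1.49).

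Nr4a1 had 761, 1474, 1159, 2156 and 1982 CPM in CD11bhi YFP+ cells, against 3638, 4569, 3746, 4845 and 3114 CPM in kidney cDC2 (log2 fold -1.07 ± 0.28 SE, edgeR adjusted p = 0.0262). Although the groups did not overlap, the call was lost without CD11bhi YFP+ replicate 1 (-0.90), CD11bhi YFP+ replicate 2 (-1.06), CD11bhi YFP+ replicate 3 (-0.99), kidney cDC2 replicate 1 (-0.98) and kidney cDC2 replicate 2 (-0.78). Fos (1972, 4028, 2978, 4857 and 5024 CPM against 6242, 5434, 3433, 6284 and 3795 CPM) and Egr1 (578, 1320.4, 847, 1256 and 1829.6 CPM against 1451, 1671, 913, 1362 and 1376 CPM) overlapped and did not pass. Hspa1a and Hspa1b overlapped and did not pass either.

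Splitting either CD64+ gate of the kidney by YFP gave no called member. CD11bhi YFP+ relative to CD11bhi YFP- cells gave 0 of 37 with edgeR, DESeq2 and limma, although edgeR called 5.34% of all genes. At an unadjusted edgeR p under 0.05 there were 0 members, against 3112 of all 14258 genes tested. The members' median log2 fold was -0.26, against 0.09 for all genes, and 6 of the 37 were positive. With the shared code as a replicate block the members' median was 0.11, against 0.12, so its direction was not settled. Without CD11bhi YFP- replicate 2, which leaves 1 library assumed to vary like the other groups, Egr3 was called (log2 fold 3.72). Fos, for instance, had 1972, 4028, 2978, 4857 and 5024 CPM in CD11bhi YFP+ cells, against 4750.3 and 4554 CPM in CD11bhi YFP- cells, and Hspa1a had 2534, 4098, 2553, 3922 and 4068 CPM, against 4870.0 and 3673 CPM. F4/80hi YFP+ relative to F4/80hi YFP- cells also gave 0 of 37 by all 3 tools, where edgeR called 0.00701% of all genes (1 gene). At an unadjusted edgeR p under 0.05 there were 0 members here, against only 132 of all 14258 genes tested. Fos had 1603, 2696 and 1242 CPM in F4/80hi YFP+ cells, against 1493, 2637 and 1261 CPM in F4/80hi YFP- cells, and Nr4a1 had 81.6, 77.2 and 62.3 CPM, against 82.9, 70.1 and 62.7 CPM.

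In the spleen, macrophages were below cDC2 for the nuclear receptors, the Egr factors and Hsp70. In RPM relative to spleen cDC2, 17 of the 37 members were called, against 30.0% of all 14258 genes tested, with 14 lower (background 14.5%) and 3 higher (15.5%). Over the members the median log2 fold was -0.64, against 0.00 for all genes. Nr4a3 had 2.76, 1.36 and 1.49 CPM in RPM, against 78.4, 133 and 195 CPM in spleen cDC2 (log2 fold -6.16 ± 0.72 SE, edgeR adjusted p = 5.46e-08). Nr4a2 had 39.4, 15.3 and 23.2 CPM, against 362, 778 and 731 CPM (log2 fold -4.58 ± 0.43 SE, edgeR adjusted p = 9.85e-10), and Egr3 had 13.5, 9.41 and 9.76 CPM, against 109, 168 and 227 CPM (log2 fold -3.95 ± 0.56 SE, edgeR adjusted p = 1.37e-06). The groups were far apart in all 3.

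Egr2 (log2 fold -1.998 ± 0.37 SE, edgeR adjusted p = 6.64e-05), Nr4a1 (log2 fold -1.87 ± 0.34 SE, edgeR adjusted p = 6.19e-05) and Egr1 (log2 fold -1.74 ± 0.41 SE, edgeR adjusted p = 0.00095) were lower too. Nr4a1 had 1099, 1195 and 1319.8 CPM in RPM, against 4276, 4634 and 4283 CPM in spleen cDC2, and Egr1 had 231, 406 and 594 CPM, against 1421, 1294 and 1401 CPM. Hspa1b had 126, 142 and 146 CPM, against 637, 322 and 378 CPM (log2 fold -1.69 ± 0.26 SE, edgeR adjusted p = 5.93e-06), and Hspa1a had 127, 142 and 136 CPM, against 545, 268 and 264 CPM (log2 fold -1.41 ± 0.28 SE, edgeR adjusted p = 0.000187). Without the GS libraries of the first code the Hspa1a value was -0.98. Rhob (log2 fold 1.72 ± 0.35 SE, edgeR adjusted p = 0.000212) and Myc (log2 fold 1.64 ± 0.25 SE, edgeR adjusted p = 5.61e-06) were higher, as was Cyr61 at 2.46 to 4.22 CPM in RPM, against 0 reads in spleen cDC2. Fos, with 1508, 1857 and 2244 CPM against 3042, 2931 and 2755 CPM, did not pass. The Ier2 call was lost with the replicate block (-0.99).

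The prefix itself was tested within kidney cDC1 and cDC2. In BS relative to GS libraries 1 of the 37 members was called, against 1.19% of all 14258 genes tested, none higher (0.309%) and Atf3 lower (0.884%; log2 fold -1.10 ± 0.30 SE, edgeR adjusted p = 0.037). The members' median log2 fold was -0.30, against -0.07 for all genes, and 9 of the 37 were positive. By role the median ran from -0.58 in feedback inhibitors to 0.30 in the Nr4a genes. At an unadjusted edgeR p under 0.05 there were 14 members and 3591 of all genes. Atf3 had 69.2, 128 and 69.6 CPM in BS and 166, 498 and 199 CPM in GS kidney cDC1 libraries, and 3459 and 3910 CPM in BS and 4494, 5816 and 4266 CPM in GS kidney cDC2 libraries. The call held in 3 of the 11 fits that left out 1 library and was lost in the other 8.

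Some libraries that share a code in their names stood on the same side of their group means across the members. With the group and prefix mean of each gene taken out, the median deviation of the 37 members was 0.24, 0.28 and 0.46 on the log2 scale in F4/80hi YFP+ replicate 2, F4/80hi YFP- replicate 2 and kidney cDC1 replicate 5, which share the second GS code, with 32, 30 and 30 members above their mean. The other 4 libraries of that code stood near 0, at 0.07 in kidney cDC2 replicate 4, 0.06 in spleen cDC1 replicate 2, 0.05 in spleen cDC2 replicate 2 and -0.03 in RPM replicate 2. All libraries of the first GS code stood below 0. The lowest were kidney cDC1 replicate 4 (-0.32), RPM replicate 1 (-0.20) and F4/80hi YFP- replicate 1 (-0.19), and the nearest to 0 was spleen cDC2 replicate 1 (-0.04). In kidney cDC2 replicate 3, also of that code, the median was -0.05 over the members and -0.05 over all genes. The 2 libraries of the first BS code, CD11bhi YFP+ replicate 1 and kidney cDC1 replicate 1, stood at -0.58 and -0.34, with 1 and 4 members above their mean. The median over all genes was between -0.05 and 0.03 in every library. CD11bhi YFP+ replicate 1 was below replicate 2 in 37 of 37 members (median log2 difference -0.76), and kidney cDC1 replicate 1 was below replicate 2 in 34 of 37 (-0.83). Over all genes, 46.8% and 47.5% were lower in the first of each pair, and the median difference was 0. What a code stands for was not given in the labels used here, and its part in these shifts was not tested.

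**Figure D5:**
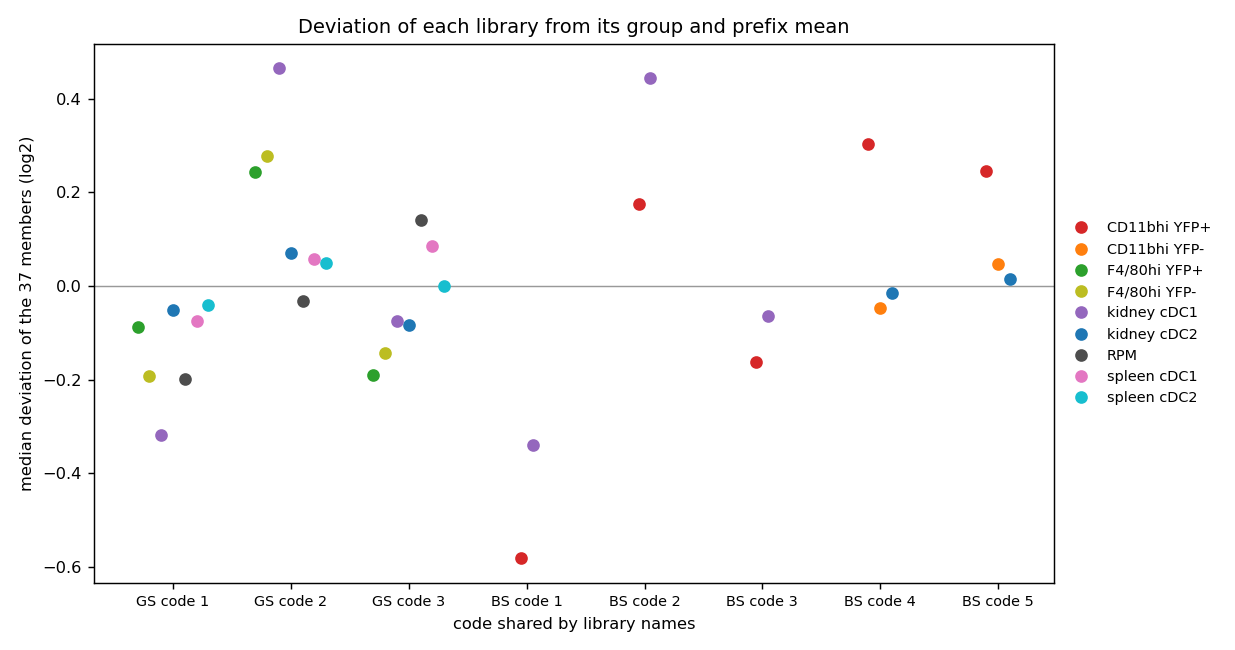
Median deviation of the 37 members from their group and prefix mean (log2) for each library, by the code shared between library names, with colours for populations. The library of CD11bhi YFP+ at BS code 1 lies lowest at -0.58, and the kidney cDC1 libraries range from -0.34 to 0.46 across codes.

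Genes of the same pathways outside the 37 gave the following counts with the same fit. Of 31 other heat shock factors, chaperones and co-chaperones tested, 10 were higher and 1 lower in kidney cDC2 than in spleen cDC2, 5 and 0 in cDC1, and 4 and 0 in F4/80hi YFP- cells relative to RPM. The shares of all genes called higher were 11.9%, 6.66% and 11.1%, so the last count is near the background. Hspb1, a small heat shock protein, averaged 38 ± 8.09 CPM in kidney cDC2 and 1.39 ± 1.1 CPM in spleen cDC2 (SD, n = 5 and 3), and 23.9 ± 10.8 CPM in F4/80hi YFP- and 0.255 ± 0.0124 CPM in RPM (SD, n = 3 and 3). Bag3, an Hsp70 co-chaperone, averaged 53.8 ± 8.91 CPM in kidney cDC2 and 8.06 ± 2.72 CPM in spleen cDC2 (SD, n = 5 and 3), and 57.9 ± 33.1 CPM in kidney cDC1 and 13.4 ± 5.41 CPM in spleen cDC1 (SD, n = 6 and 3). Both were called higher in kidney in all 3 lineages.

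Of 34 other early response genes, 11 were higher and 0 lower in CD11bhi YFP+ than in F4/80hi YFP+ cells, 4 and 19 in kidney cDC1 relative to kidney cDC2, and 1 and 16 in F4/80hi YFP+ cells relative to kidney cDC2. Over all genes the higher and lower shares were 7.71% and 4.36%, 5.48% and 10.2%, and 8.87% and 10.5% in these comparisons. Bhlhe40, a basic helix-loop-helix repressor, averaged 338 ± 96.8 CPM in CD11bhi YFP+ and 4.3 ± 1.08 CPM in F4/80hi YFP+ (SD, n = 5 and 3). Ptgs2 (cyclooxygenase-2) averaged 4.93 ± 5.36 CPM in kidney cDC1 and 485 ± 222 CPM in kidney cDC2 (SD, n = 6 and 5). Of 23 further feedback inhibitors tested, 4 were higher and 2 lower in the CD11bhi comparison with F4/80hi cells, 1 and 13 in kidney cDC1 relative to cDC2, and 2 and 8 in F4/80hi YFP+ cells relative to kidney cDC2. Tnip3, an A20-binding inhibitor of NF-kB, averaged 246 ± 47.4 CPM in kidney cDC2 and 2.62 ± 0.15 CPM in spleen cDC2 (SD, n = 5 and 3).

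Of 5 NF-kB subunit genes, 3 were lower and 0 higher in kidney cDC1 than in kidney cDC2, and 3 and 0 in F4/80hi YFP+ cells relative to kidney cDC2. Rel averaged 41.1 ± 10.4 CPM in kidney cDC1 and 177 ± 57.1 CPM in kidney cDC2 (SD, n = 6 and 5). Of 10 early cytokine and chemokine genes, 9 were lower and 0 higher in kidney cDC1 than in kidney cDC2, and 5 were higher and 0 lower in kidney cDC2 than in spleen cDC2 (over all genes 11.9% and 6.90%). Il1b averaged 117 ± 83.1 CPM in kidney cDC1 and 3479.9 ± 895 CPM in kidney cDC2 (SD, n = 6 and 5). Of 18 other AP-1, ATF and MAF genes, 4 were lower and 1 higher in kidney cDC1 than in kidney cDC2, and 3 were lower and 1 higher in F4/80hi YFP- cells than in RPM. Over all genes 10.2% were lower and 5.48% higher in the first of these comparisons and 9.02% and 11.1% in the second, so the higher counts are near or below the background.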

How the data were processed

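RNA of directly lysed sorted cells was amplified with SMARTseq v4 and made into MicroPlex v2 libraries, which keep no strand, per the labels' protocols. The deposited counts are STAR reads per gene on mm10. The deposited expected counts and TPM come from RSEM, per the submitters' processing notes; tool versions and annotation are not given in the sources used here. Reads assigned to no gene, 22.6% to 64.0% of each library, stayed out of library sizes and tests.

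Counts of all 33 libraries were fitted with edgeR 4.0.16 (quasi-likelihood, TMM, at least 10 reads by filterByExpr, R 4.3.3) with population and library prefix as terms, and p-values were adjusted by Benjamini-Hochberg over 14258 genes. DESeq2 1.42.0, limma 3.58.1 on log2(TPM + 1), rounded RSEM expected counts and other alternatives are compared in the closing section. The script was tested on simulated data.

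Values by library are given for up to 4 called members per direction with the largest fold and at least 10 CPM, and for Fos, Egr1, Nr4a1, Hspa1a, Hspa1b and Cyr61. The members and lists were chosen with earlier results of these data known. Libraries sharing a code in their names deviated together (r of deviations above 0.1 in every pair) in 5 of 9 comparisons, namely 0.150 to 0.524 for F4/80hi YFP+ against YFP-, 0.126 to 0.196 for cDC2 and 0.116 to 0.270 for cDC1 between organs, 0.127 to 0.277 for RPM against spleen cDC2, and 0.252 to 0.342 for kidney cDC1 against cDC2. No 2 libraries held identical counts.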

Additional observations from a re-analysis of the deposited data

Results flagged for a closer look

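In groups of 4 to 6 libraries, 10 of 108 tests found a highest or lowest library whose gap to its neighbour was large for the group's range. Chance gives about 1 in 20. The members varied together (median r of deviations 0.39 over all member pairs), and both kidney cDC groups mix GS and BS libraries. An excess over chance therefore cannot be read from this count. In CD11bhi YFP+ cells the flagged values were Egr3 in replicate 4 (15.4 CPM) and Dusp1 in replicate 1 (1784 CPM). In kidney cDC2 they were Jun in replicate 1 (3486 CPM), Ier2 in replicate 3 (4539.8 CPM) and Zfp36 in replicate 4 (16588 CPM). In kidney cDC1 they were Jund (2650.3 CPM) and Maff (16.7 CPM) in replicate 4, and Atf3 (498 CPM), Dusp2 (289.7 CPM) and Ppp1r15a (732 CPM) in replicate 5.

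For 20 members the log2 difference between kidney and spleen in macrophages minus that in cDC2 passed edgeR's interaction test. Among AP-1 genes the values were -4.39 for Fosl2, -3.71 for Atf3, -3.26 for Fosb, -2.27 for Junb, -2.17 for Maff and -1.86 for Jund. Among feedback inhibitors they were -4.02 for Nfkbia, -3.71 for Tnfaip3, -3.68 for Socs3, -2.55 for Zfp36, -1.99 for Dusp1, -1.79 for Nfkbiz and -1.56 for Dusp2. Other early genes gave -4.21 for Nr4a1, -3.79 for Gadd45b, -2.49 for Ier3 and -2.08 for Ier2. The heat shock genes gave 1.33 for Hspa1b, 1.15 for Hspa1a and -1.66 for Dnajb1.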

How the results depend on the processing

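Of 190 calls of a member in a comparison, 139 held under every alternative run. This share differed between comparisons. It was lowest for BS against GS libraries (0 of 1) and CD11bhi YFP+ against kidney cDC2 (4 of 10). It was highest for cDC1 between organs and for F4/80hi YFP- against RPM (17 of 20 each). Counts of called members under alternatives are given without the share of all genes called in the same fit. They describe how the calls moved and are not set against a background. With 1 library left out, the number of called members ranged from 18 to 24 for CD11bhi YFP+ against F4/80hi YFP+, 7 to 12 for CD11bhi YFP+ against kidney cDC2, 0 to 1 for CD11bhi YFP+ against YFP-, 27 to 32 for F4/80hi YFP+ against kidney cDC2, 27 to 29 for kidney cDC1 against kidney cDC2, 21 to 23 for cDC2 and 18 to 22 for cDC1 between organs, 18 to 20 for F4/80hi YFP- against RPM, 15 to 18 for RPM against spleen cDC2, 19 to 20 for the interaction and 0 to 2 for BS against GS libraries. In the last comparison 0 members were called by limma on log2(TPM + 1), on log2(TPM + 0.1) and without a filter, in a fit of only the groups compared, and, chosen after seeing the data, without the 2 libraries of the first BS code or the 7 of the first GS code. Ier2 joined Atf3 there without kidney cDC2 replicate 5. Only Klf2, in kidney cDC1 against cDC2, changed sign while called in the main result, at -0.0284 in BS libraries alone.

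With the shared code as a replicate block, 25 members were called for CD11bhi YFP+ against F4/80hi YFP+, 9 for CD11bhi YFP+ against kidney cDC2 (8 lower, and Rhob higher at 1.12), 30 for F4/80hi YFP+ against kidney cDC2, 27 for kidney cDC1 against cDC2, 20 for each of the cDC comparisons between organs, 21 for F4/80hi YFP- against RPM and 16 for RPM against spleen cDC2. Where codes did not pair the libraries, the block ended the calls of Nr4a1 (-0.82) and Nfkbia (-0.999) for CD11bhi YFP+ against kidney cDC2 and of Nfkbiz (-0.97) for F4/80hi YFP+ against kidney cDC2. The cause of these losses was not tested. With 100 bases before the start in place of 250, a heat shock element was found in 2 of 32 members (Cyr61 and Hsph1), against 8.85% of all genes. Low counts limit Nr4a3 and Cyr61, which had fewer than 50 reads in many libraries.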
